A study of Mus musculus with 4 samples.

Results

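The angiopoietins Angpt1, Angpt2 and Angpt4, their receptors Tek (the gene of Tie2) and Tie1, and the angiopoietin-like gene Angptl4 were examined in 2 mouse stromal lines, OP9M2 and BFC012. The members were all probe sets of the Affymetrix mouse array that its annotation maps to 1 of these genes alone, which gave 10 probe sets for 6 genes, out of 45037 probe sets and 18193 genes tested. Of these genes, 4 had 2 probe sets and 2 (Tek and Tie1) had 1. OP9M2 is a clone of the mouse stroma line OP9 and is labelled a mesenchymal stem cell line that sustains human blood progenitors. BFC012 is labelled a fibroblast line from fetal liver and does not sustain them. Each line was measured on 2 arrays, labelled as biological replicates, of cells that had been irradiated (2000 rad) and seeded at a density of 25000 per square centimetre, 48 hours before RNA was taken. OP9M2 was kept in 20% serum and BFC012 in 10%, so the line and its serum cannot be told apart. Each group is 1 cell line, so that the p-values measure only the spread between these samples of it.

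Angiopoietins are secreted ligands of Tie2, a receptor tyrosine kinase of endothelial cells that is also carried by hematopoietic stem cells. Angpt1 is the main agonist, Angpt2 opposes or weakly replaces it depending on context, and Angpt4 is a further ligand of the receptor. Tie1 binds no angiopoietin strongly and acts with Tie2 in a complex. Angptl4 has a related domain structure but does not bind Tie receptors. It is a secreted inhibitor of lipoprotein lipase. In mouse bone marrow, Angpt1 made by stroma and Tie2 on stem cells are a known niche pair.

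All values are natural logarithms of the deposited values, read as RMA values in log2 units. The base was not stated, so every difference and fold depends on this reading. A background level of 6.09 log2 units was taken from olfactory, vomeronasal and trace amine receptor probe sets, which are not expected to be expressed in stroma. Values below it were read as not above background. Probe sets were called when limma's adjusted p was below 0.05 and the lines were 1 log2 unit or more apart. Folds are 2 raised to the difference. Where both arrays of the lower line were below background, a fold is given as "at least" and is the mean of the higher line over the background level.

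Of the 10 member probe sets, 3 were called higher in OP9M2 and 0 lower, where 1.80% of all probe sets were called higher and 2.66% lower. At an unadjusted p under 0.05, 4 were higher and 0 lower, against 8.88% and 10.5% of all probe sets. Counted by gene at its brightest probe set, 2 of 6 members were higher (Angpt1 and Angptl4) and none lower, where 2.36% of all genes were higher, 3.56% lower and 5.91% called in either direction (4.46% of probe sets). The median difference of the 10 probe sets was 0.18, and that of all probe sets was 0.038. Of the 10, 5 were above background on at least 1 array, against 55.3% of all probe sets. The other 5 gave no signal above background in either line. In RNA of whole cultures, fewer cells that express a gene and less RNA per cell cannot be told apart.

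**Figure D1:**
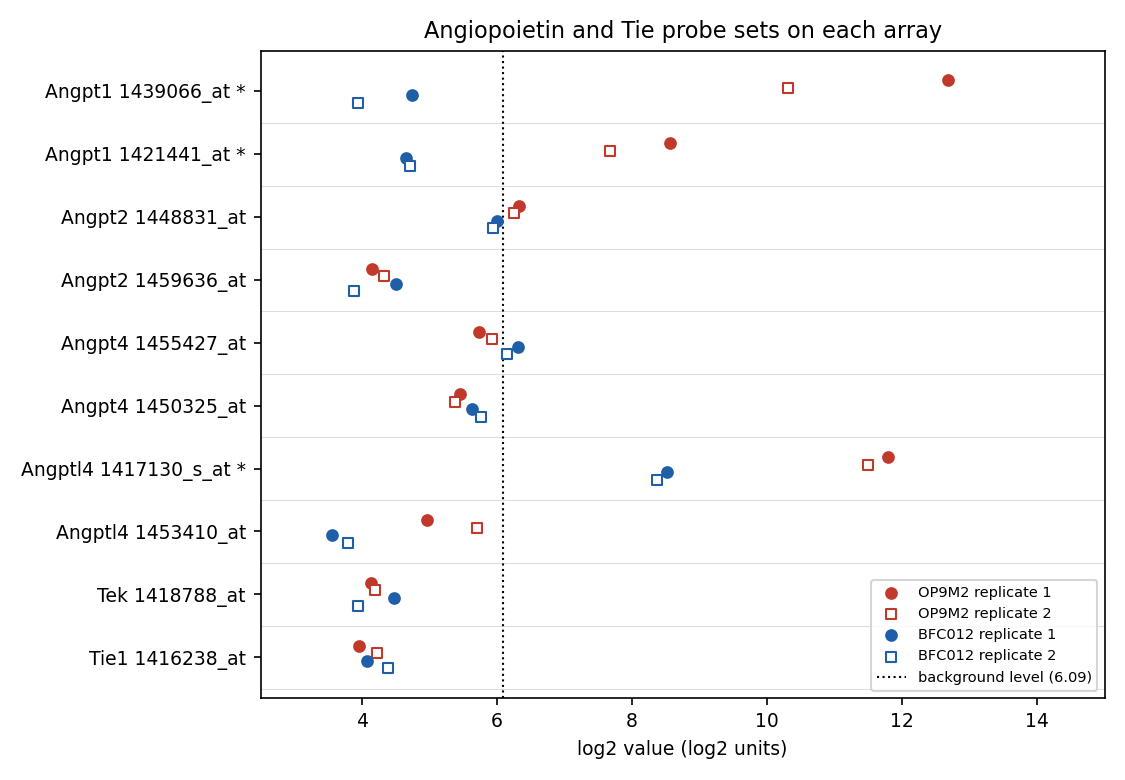
Value of each of the 10 member probe sets (rows) for each array (horizontal axis in log2 units, 4 arrays). OP9M2 is drawn in red and BFC012 in blue, with replicate 1 as filled circles and replicate 2 as open squares, the dotted line is the background level of 6.09, and an asterisk marks the 3 called probe sets. Both Angpt1 probe sets lie above background in OP9M2 and below it in BFC012, while Tek and Tie1 lie below it on all 4 arrays.

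Angpt1, the Tie2 agonist, was well above background in OP9M2 and not above it in BFC012. Its brighter probe set (1439066_at) had 12.7 and 10.3 log2 units in OP9M2 replicates 1 and 2, against 4.74 and 3.95 in BFC012 replicates 1 and 2. The lines did not overlap, and the lower OP9M2 array was still far above the higher BFC012 array. The difference was 7.15 ± 0.84 (SE, n = 2 arrays per line, 95% interval 4.91 to 9.39, limma adjusted p = 0.0229), at least 42.4-fold. Since both BFC012 values were below background, only the bound is measured.

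The other Angpt1 probe set (1421441_at) had 8.56 and 7.68 in OP9M2, against 4.65 and 4.71 in BFC012. The direction was that of the first probe set and the lines again did not overlap. The difference was 3.44 ± 0.32 (95% interval 2.59 to 4.29, limma adjusted p = 0.0126), at least 4.07-fold. Both folds of Angpt1 are bounds, so the 2 probe sets are not compared in size.

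The OP9M2 replicates were farther apart than the BFC012 replicates across the whole array, with 2842 of 45037 probe sets at least 1 log2 unit apart (r = 0.980 across probe sets) against 291 between the BFC012 replicates (r = 0.994). The brighter Angpt1 probe set was 2.37 log2 units higher in replicate 1 than in replicate 2, a gap exceeded by 0.351% of all probe sets, and the other was 0.88 higher, a gap exceeded by 8.33%. Without OP9M2 replicate 1 the difference of the brighter probe set was 5.97 (adjusted p = 0.00407) and without OP9M2 replicate 2 it was 8.34 (adjusted p = 0.00155). In these fits the BFC012 pair alone gives the spread, and the remaining OP9M2 array is assumed to vary like it, so that the p-values leave out the gap between the OP9M2 arrays. OP9M2 replicate 2 was also the only array on which the poly-A control probe sets, spiked into the RNA before amplification, were at a low median of 3.66, against 6.97 in OP9M2 replicate 1 and 6.62 and 6.12 in BFC012. The 3′ minus 5′ differences of the control probe sets, a sign of RNA integrity, were 0.0019 and -0.11 in OP9M2 against -0.019 and -0.082 in BFC012 for Gapdh, and 0.39 and 0.15 in OP9M2 against 0.25 and 0.20 in BFC012 for beta-actin. The part of these in the Angpt1 gap was not tested.

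Angpt2, the context-dependent ligand made mostly by endothelial cells, was near or below background and was not called. Its brighter probe set (1448831_at) had 6.32 and 6.25 in OP9M2, against 5.99 and 5.94 in BFC012. The OP9M2 values lay just above the background level and the BFC012 values just below it, without overlap. The difference was 0.32 ± 0.13 (95% interval -0.034 to 0.66, limma adjusted p = 0.303). The upper end of the interval lies below 1, so a 2-fold difference of the probe set signal lay outside it. The other probe set (1459636_at) had 4.15 and 4.33 in OP9M2, against 4.50 and 3.89 in BFC012, and the lines overlapped.

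Angpt4 was the only ligand whose values were lower in OP9M2, and neither probe set was called. Its brighter probe set (1455427_at) had 5.73 and 5.93 in OP9M2, against 6.31 and 6.15 in BFC012, so that only the BFC012 arrays passed the background level. The difference was -0.40 ± 0.15 (95% interval -0.81 to 0.0054, limma adjusted p = 0.264). The other probe set (1450325_at) had 5.46 and 5.38 in OP9M2, against 5.63 and 5.77 in BFC012 (-0.28 ± 0.14, adjusted p = 0.389), below background on all 4 arrays. Lack of overlap alone is common on 4 arrays. Both OP9M2 arrays lay above both BFC012 arrays in 5 of the 10 member probe sets, against 27.6% of all probe sets, and below them in 2 of 10 (both of Angpt4), against 21.9%.

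Angptl4, the lipase inhibitor, was above background in both lines and higher in OP9M2. Its brighter probe set (1417130_s_at) had 11.8 and 11.5 in OP9M2, against 8.51 and 8.37 in BFC012. The replicates of each line were close together, with gaps of 0.30 in OP9M2 and 0.14 in BFC012, far smaller than the distance between the lines. The difference was 3.20 ± 0.17 (95% interval 2.75 to 3.65, limma adjusted p = 0.00331), a 9.22-fold change. Since both lines were measured above background, this fold is not a bound. It depends on how the deposited values are read, and with log2 of the deposited value in place of its natural logarithm it would be 24.6-fold. The suffix _s_at marks a probe set whose probes can match more than 1 transcript.

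The other Angptl4 probe set (1453410_at) had 4.97 and 5.70 in OP9M2, against 3.55 and 3.79 in BFC012. It pointed the same way without overlap (1.66 ± 0.29, limma adjusted p = 0.0557), but all 4 values were below background and it was not called. No fold is given for it.

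**Figure D2:**
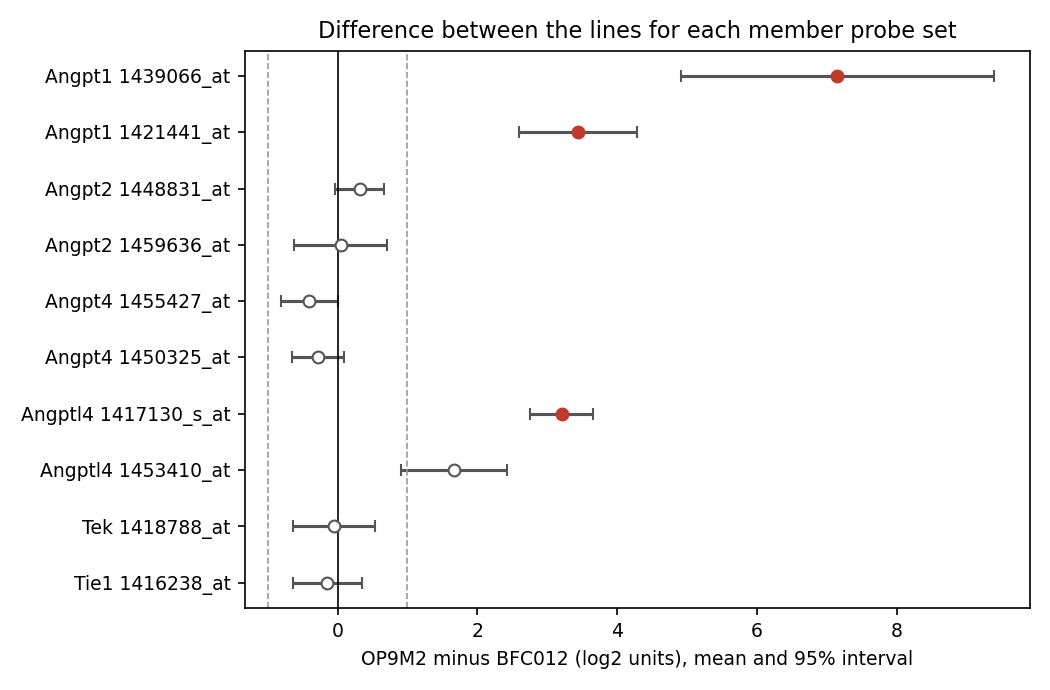
Difference between the lines for each of the 10 member probe sets (horizontal axis, OP9M2 minus BFC012, log2 units). Points are the differences, bars the 95% intervals of the limma fit (2 arrays per line), filled points the 3 called probe sets, and dashed lines mark a difference of 1 in either direction. The intervals of both Angpt1 probe sets and of the brighter Angptl4 probe set lie above 1, and those of Angpt2, Angpt4, Tek and Tie1 lie between -1 and 1.

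The receptors were not above background in either line. Tek, which encodes Tie2, had 4.13 and 4.19 in OP9M2, against 4.48 and 3.94 in BFC012. The OP9M2 values lay between the BFC012 values. The difference was -0.048 ± 0.22 (95% interval -0.63 to 0.54, limma adjusted p = 0.949). Tie1 had 3.96 and 4.22 in OP9M2, against 4.08 and 4.39 in BFC012, and the lines overlapped. Its difference was -0.15 ± 0.19 (95% interval -0.64 to 0.35, limma adjusted p = 0.760). With 1 probe set for each receptor, no second probe set could be set beside these values. A transcript level under the background of the array was not detectable here.

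The promoters of the receptors are shown because Tie genes are known targets of ETS factors in endothelial cells. They were taken from RefSeq (GRCm38.p6), in which windows of 300 bases, 250 before and 50 after a gene start, were matched for 3 of the 6 members (Angpt4, Tek and Tie1). The Tek window is chr4:94739039-94739338 on the plus strand and the Tie1 window is chr4:118489800-118490099 on the minus strand. Both are written 5′ to 3′ along the gene, and capitals mark the ETS core GGAA or its reverse complement TTCC.
Tek: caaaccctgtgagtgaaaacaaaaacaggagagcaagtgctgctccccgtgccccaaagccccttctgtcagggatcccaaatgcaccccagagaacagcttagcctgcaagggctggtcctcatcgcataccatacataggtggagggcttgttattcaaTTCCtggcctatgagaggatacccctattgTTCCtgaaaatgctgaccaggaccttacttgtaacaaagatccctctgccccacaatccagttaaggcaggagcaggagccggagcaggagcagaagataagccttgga
Tie1: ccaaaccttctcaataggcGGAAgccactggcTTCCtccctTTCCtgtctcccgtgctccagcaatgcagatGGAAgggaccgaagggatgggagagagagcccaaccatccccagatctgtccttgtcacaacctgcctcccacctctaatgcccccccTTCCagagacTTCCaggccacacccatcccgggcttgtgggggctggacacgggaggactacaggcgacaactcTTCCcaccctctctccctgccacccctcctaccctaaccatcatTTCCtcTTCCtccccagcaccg

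The Tie1 window held 9 matches of GGAA on both strands together and the Tek window 2, where 96.0% of 32851 windows of this length held at least 1 and the median window held 3. At least 9 matches were found in 1.59% of the windows. The longer form CAGGAA matched 2 times in Tek and 1 time in Tie1, where 30.6% of windows held at least 1 and 5.87% at least 2. The GATA motif AGATAA matched 1 time in Tek and 0 times in Tie1, where 11.2% of windows held at least 1. A match describes the letters of a window and is not a measured site.

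Tie receptors mark endothelial cells, and most other markers of these cells were also near or below background. Of 15 endothelial markers, 9 were above background on no array, among them the adhesion molecules Pecam1 (4.33 and 3.78 in OP9M2, against 4.27 and 4.0 in BFC012) and Cdh5 (4.69 and 4.73 in OP9M2, against 4.46 and 4.50 in BFC012). The mean over the 15 markers was 5.46 and 5.53 in OP9M2, against 5.81 and 5.62 in BFC012. Erg and Cldn5 lay close to the background level. Egfl7 and the VEGF receptors Kdr and Flt1 were above it on all 4 arrays, and Flt4, at its brightest probe set, in BFC012 only. Egfl7 had 7.43 and 8.07 in OP9M2, against 8.53 and 8.70 in BFC012 (-0.87 ± 0.25, adjusted p = 0.170). One other probe set of Egfl7 was called lower (-1.86), and the rest were not (0.090 and -0.73). Flt4 was lower in OP9M2, with 5.41 and 5.57 against 7.68 and 7.18 in BFC012 (-1.94 ± 0.22, limma adjusted p = 0.0200), while its other probe set was not called (0.075). At its brightest probe set, the VEGF receptor Flt1 had 6.51 and 6.32 in OP9M2, against 7.79 and 7.36 in BFC012 (-1.16 ± 0.20, adjusted p = 0.0583). Of its 3 other probe sets 2 were called lower (-2.73 and -1.54). Kdr had 6.79 and 6.88 in OP9M2, against 6.82 and 6.51 in BFC012.

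**Figure D3:**
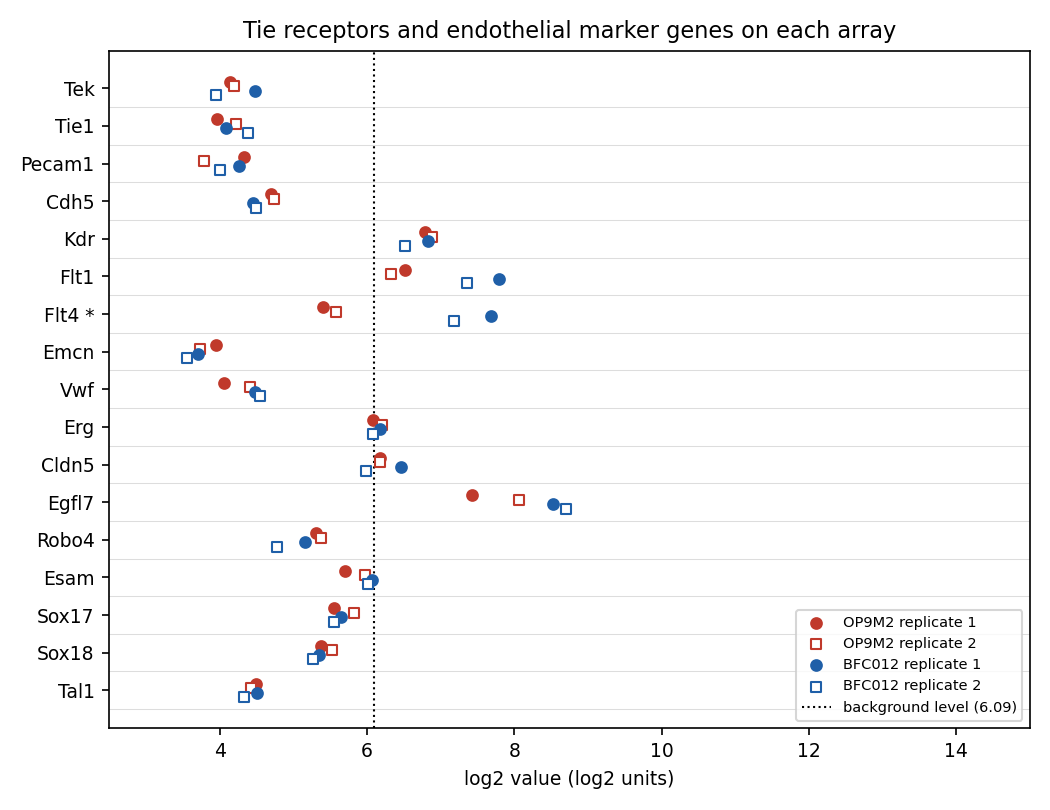
Value of Tek, Tie1 and 15 endothelial marker genes (rows, brightest probe set of each) for each array (horizontal axis in log2 units, 4 arrays), with OP9M2 in red, BFC012 in blue, filled circles for replicate 1, open squares for replicate 2 and a dotted line at the background level of 6.09. Tek, Tie1, Pecam1 and Cdh5 lie below the line on all arrays, and Flt4, marked with an asterisk, lies above it in BFC012 only.

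Macrophages can also carry Tie2. Of 10 macrophage and leukocyte markers, 2 were above background on all 4 arrays, 3 on some and 5 on none, and the mean over the 10 was 5.55 and 5.71 in OP9M2, against 5.76 and 5.77 in BFC012. The 2 were the receptor Csf1r (6.89 and 7.06 in OP9M2, against 7.07 and 6.96 in BFC012) and Cd14, which was lower in OP9M2 (7.12 and 7.47, against 8.94 and 9.57 in BFC012, -1.96 ± 0.27, adjusted p = 0.0347). Cd68, Spi1 and Lyz2 passed the background level on some arrays. The 5 on none included the pan-leukocyte gene Ptprc (4.36 and 4.36 in OP9M2, against 4.40 and 4.41 in BFC012) and the macrophage gene Adgre1. The mesenchymal genes Vim (14.3 and 14.4 in OP9M2, against 13.8 and 14.0 in BFC012), Fn1 and Col1a1 were far above background in both lines, but Thy1 and Postn were above background in neither. Of the 10 mesenchymal markers 1 was called, Col1a2, which was higher in OP9M2 (8.07 ± 0.14). At an unadjusted limma p under 0.05, 4 of the 10 were higher and 1 lower, against 10.5% and 12.8% of all genes. Pdgfra (3.37 ± 0.56, adjusted p = 0.0513) and Pdgfrb (2.18 ± 0.51, adjusted p = 0.109) had higher values in OP9M2 without overlap. Lum (-1.12 ± 0.22, adjusted p = 0.0746) had lower values in OP9M2 and was below background on all 4 arrays.

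Pericytes are a known source of Angpt1 in vessels. Of 8 pericyte markers, the proteoglycan Cspg4 was higher in OP9M2 (3.39 ± 0.14, adjusted p = 0.00197), the adhesion molecule Mcam was lower (-3.48 ± 0.33, adjusted p = 0.0132), and 6 were not called. Of the 8, 5 were above background on all 4 arrays, among them Acta2, Notch3 and Des, which were not called. Acta2 (-1.50 ± 0.30, adjusted p = 0.0798) and Notch3 (-1.58 ± 0.47, adjusted p = 0.173) had lower values in OP9M2, and Des differed by 0.26 ± 0.19. Rgs5, Kcnj8 and Abcc9 were above background on no array.

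None of the other angiopoietin-like genes with a single-gene probe set was called. In limma 0 of 4 passed, and 0 had an unadjusted p under 0.05. Angptl6 had 7.56 and 6.95 in OP9M2, against 6.85 and 6.83 in BFC012 (0.42 ± 0.24, adjusted p = 0.448). Angptl7 stayed just above background at 6.29 and 6.36 in OP9M2, against 6.23 and 6.27 in BFC012. Angptl1 and Angptl8 were above background on no array.

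The transcripts of proteins that meet Tie receptors on the cell surface were above background in most cases. Of these genes limma called 0 of 8, with 2 higher and 3 lower at an unadjusted p under 0.05, against 10.5% and 12.8% of all genes. The closest to a call was Ptprb, the phosphatase VE-PTP that removes phosphate from Tie2, with 5.41 and 5.35 in OP9M2, against 7.65 and 6.67 in BFC012 (-1.78 ± 0.35, limma adjusted p = 0.0764). Of its other probe sets 1 was called lower (-1.26, adjusted p = 0.0354) and 1 was not (-0.14). Integrin chains that angiopoietins can bind were Itgb3 (1.87 ± 0.42, adjusted p = 0.101), Itga5 (0.79 ± 0.17, adjusted p = 0.0937, with 1 of its 3 other probe sets called higher at 1.26) and Itgb1 (-0.50 ± 0.21). Itgb3 had 9.60 and 8.40 in OP9M2, against 7.12 and 7.14 in BFC012, and its other probe set differed by only 0.30 (adjusted p = 0.318). Svep1, a matrix protein that binds Tie1, had 6.21 and 6.26 in OP9M2, against 6.66 and 6.69 in BFC012 (-0.44 ± 0.13, adjusted p = 0.175).

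Genes that act below Tie2 were mostly above background in both lines, and none was called. Of 13 measured, 12 were above background on all 4 arrays and limma called 0, with 1 (Pik3r1) at an unadjusted p under 0.05, against 23.3% of all genes. The median difference was -0.11. Foxo1, the transcription factor that Angpt1 signalling holds out of the nucleus, had 8.95 and 9.23 in OP9M2, against 8.74 and 8.92 in BFC012 (0.26 ± 0.17, adjusted p = 0.503). Akt1 differed by -0.19 ± 0.17, the adaptor Shc1 by 0.86 ± 0.39, and the kinase subunit Pik3r1 by -0.97 ± 0.24 (adjusted p = 0.121). Most of these genes serve many receptors, and their transcripts say nothing on Tie2 alone.

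Some of the genes around Angptl4 were called. Of 7 measured genes of the lipase axis, Lpl, the lipoprotein lipase that Angptl4 inhibits, was higher in OP9M2, with 13.9 and 12.0, against 6.33 and 5.74 in BFC012 (6.91 ± 0.66, adjusted p = 0.0135). Both probe sets of Lpl were called. Vldlr, a receptor for triglyceride-rich lipoproteins, was lower, with 4.02 and 3.87 in OP9M2, against 8.81 and 10.0 in BFC012 (-5.47 ± 0.42, at least 9.96-fold, adjusted p = 0.00796). The remaining 5 were not called. Among them the fatty acid transporter Cd36 had 11.6 and 7.13 in OP9M2, against 3.41 and 3.74 in BFC012 (5.77 ± 1.48, adjusted p = 0.131), with a gap of 4.42 between the OP9M2 arrays in the same direction as that of Angpt1. Gpihbp1, which anchors the lipase to endothelium, and Lipg, the endothelial lipase, were at or below background. One other probe set of Lipg was called lower (-1.08), but its means of 4.06 in OP9M2 and 5.15 in BFC012 were both below the background level.

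PPAR, glucocorticoid and hypoxia factors are known to control Angptl4. Of 8 such genes, Pparg and Epas1 were higher in OP9M2. Pparg, the adipocyte nuclear receptor, had 11.7 and 11.1 in OP9M2, against 7.0 and 6.86 in BFC012 (4.46 ± 0.23, adjusted p = 0.00321). Epas1, which encodes the hypoxia factor HIF-2alpha, had 12.6 and 11.3 in OP9M2, against 6.93 and 6.87 in BFC012 (5.08 ± 0.44, adjusted p = 0.0106), while its other probe set was not called (0.98, adjusted p = 0.0955). The 6 others were not called. Hif1a had 12.8 and 12.2 in OP9M2, against 12.3 and 12.8 in BFC012, and Ppard had 8.45 and 7.87 in OP9M2, against 8.69 and 8.51 in BFC012. Ppara was below background on all arrays.

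Other genes that PPAR factors and hypoxia are known to induce were mixed. Of 6 measured PPAR targets, Fabp4 (8.81 ± 0.24, at least 157-fold, adjusted p = 0.00111), the mitochondrial enzyme Acadl (1.53 ± 0.16, adjusted p = 0.0179) and the lipid droplet protein Plin2 (1.09 ± 0.17, adjusted p = 0.0444) were higher in OP9M2, and Pdk4 (1.38 ± 0.39), Cpt1a (0.47 ± 0.24) and Slc25a20 (-0.24 ± 0.15) were not called. Their median difference was 1.23, against 0.032 over all genes. The other probe set of Acadl differed by 0.078. Of 10 hypoxia targets, the peptide Adm (4.82 ± 0.21, adjusted p = 0.00212), the mitophagy gene Bnip3 (2.48 ± 0.29, adjusted p = 0.0224) and the kinase Pdk1 (1.06 ± 0.16, adjusted p = 0.0431) were higher in OP9M2 and 7 were not called, with a median of 0.17. Vegfa (0.12 ± 0.25) and the glucose transporter Slc2a1 (-0.057 ± 0.20) were among the 7, and Car9 (-1.59 ± 0.36) and Ndrg1 (-2.64 ± 0.51, adjusted p = 0.0735) had lower values in OP9M2. Plin2 and Pdk1 were not called without OP9M2 replicate 1 (0.96 and 0.95), and neither was called with median centring. With the replicate number as a block, 1 PPAR target and 1 hypoxia target were called higher.

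**Figure D4:**
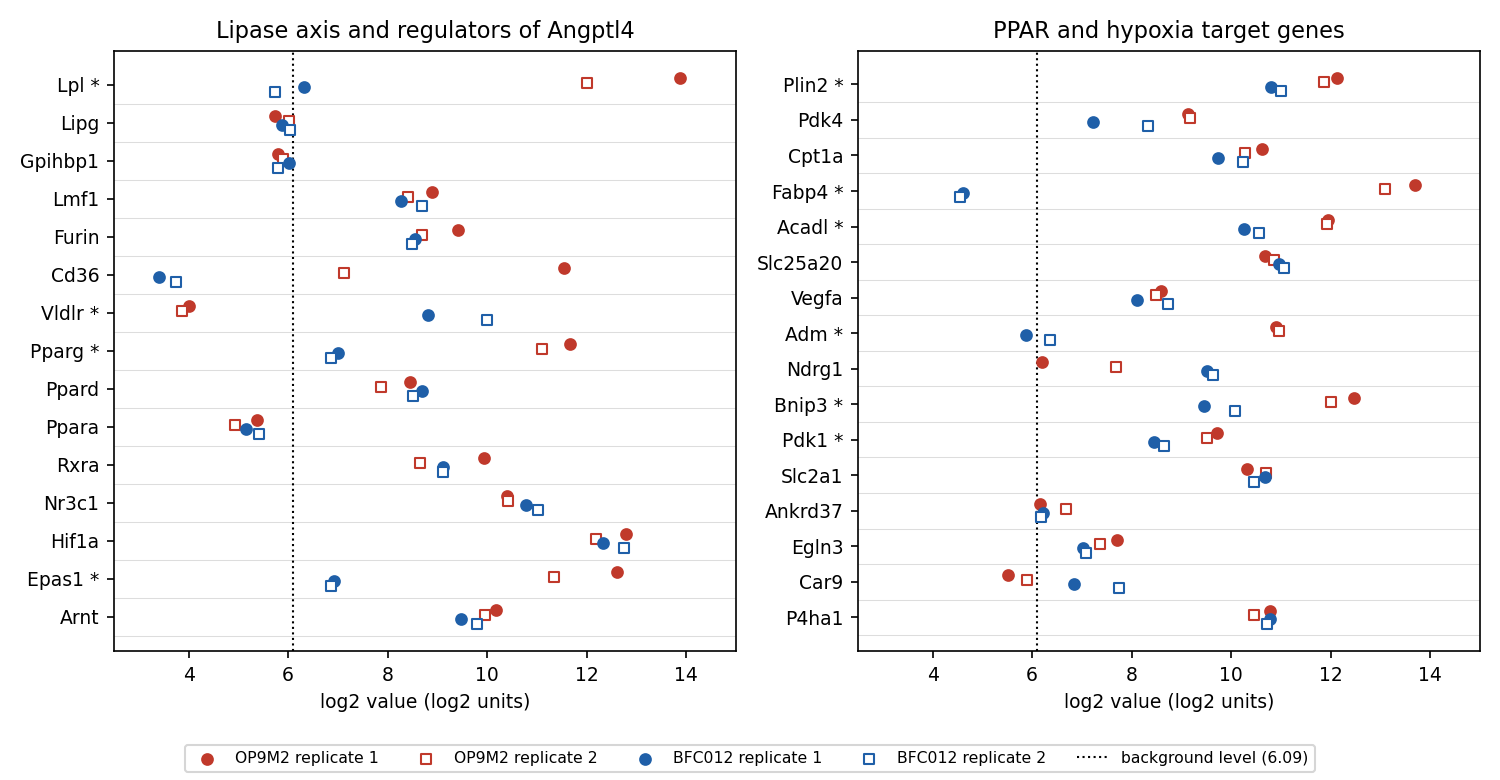
Value of the measured genes of the lipase axis and of Angptl4 regulators (left) and of PPAR and hypoxia targets (right) for each array (horizontal axes in log2 units, 4 arrays), with OP9M2 in red, BFC012 in blue, filled circles for replicate 1, open squares for replicate 2, a dotted line at the background level of 6.09 and asterisks for called genes. Lpl, Pparg, Epas1, Fabp4 and Adm lie far to the right on both OP9M2 arrays, Vldlr lies far to the left, and Cd36 is spread widely between the OP9M2 arrays.

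The genes with the pattern most like each called member were found by the distance between values over the 4 arrays after each gene's own mean was subtracted. The closest of 18192 genes to Angpt1 was Lpl, at a distance of 0.46 log2 units, followed by the matricellular gene Sparcl1 (0.95), Sncg (1.06), the gelatinase Mmp2 (1.17) and Lrrc17 (1.17). All 5 were above background in OP9M2 only or, for Lpl, also on 1 BFC012 array. All 5 were higher in OP9M2 replicate 1 than in replicate 2, which follows from choosing them by their distance to Angpt1. The closest to Angptl4 were Ttc30a1 (0.22), the stress-induced gene Nupr1 (0.22), the chondrogenic factor Sox9 (0.22), Cspg4 (0.23) and the complement protease Masp1 (0.24). These distances rest on 4 arrays of 2 lines and are a description.

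The calls rest on the spread within both lines. With either BFC012 array left out (replicate 1, then replicate 2), only the OP9M2 pair gave a spread, and limma then called 0 of 45037 probe sets, with 4568 and 4517 at an unadjusted p under 0.05, so that Angpt1 (adjusted p = 0.257 and 0.295) and Angptl4 (adjusted p = 0.109 and 0.119) were not called either. In these fits their differences were 7.55 and 6.75 for Angpt1 and 3.28 and 3.13 for Angptl4.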

How the data were processed

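The authors amplified total RNA of 4 stromal samples (Ambion kit) and measured it on Affymetrix mouse arrays. Each deposited value was an intensity of 1 probe set on 1 array, made with RMA and the affy package (versions not given in the sources used here). Between 6.31% and 6.57% of the deposited intensities of an array exceeded 65535, the scanner maximum, and their natural logarithms spanned 2.06 to 14.9, the range of RMA log2 values. The natural logarithm was therefore used as the log2 value. The base was not stated, and log2 of the deposited value was an alternative.

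Of 45101 probe sets, 64 controls were left out. In the array annotation 34945 named 1 gene, 932 several and 9160 none. Gene identifiers of 34741 were found in the RefSeq table, which gave current symbols. A gene is represented by the brightest of its probe sets, by the mean of all 4 arrays. OP9M2 and BFC012 were compared with lmFit and eBayes of limma (version 3.58.1, R 4.3.3; no covariate, 2 residual and 2.50 prior degrees of freedom, two-sided), with Benjamini-Hochberg adjustment over 45037 probe sets, and the fit was tested on simulated data. The background level is the 95th percentile of 81 sensory receptor probe sets. The named genes are all members, the called genes of 11 lists with those not called that define a list, and the 5 genes closest in pattern to each called member. Members and lists were chosen with earlier results of these data known. Detection calls were not used here, and the number of arrays limits the precision. Alternatives were the log scale, a replicate block, leaving out each array, quantile normalization, median centring, a filter on dim probe sets, an intensity trend, the mean of a gene's probe sets and no minimum difference.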

Additional observations from a re-analysis of the deposited data

How the results depend on the processing

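Angpt1 and Angptl4 kept their direction under every alternative run, with differences between 5.30 and 10.3 and between 2.43 and 4.62 outside the settings that leave out an array. The upper ends come from log2 of the deposited value, which multiplies every difference by 1.44. The lower ends come from the mean of a gene's probe sets. The other settings of this kind gave 7.14 to 7.15 for Angpt1 and 3.19 to 3.24 for Angptl4. Leaving out 1 array gave 5.97 to 8.34 for Angpt1 and 3.05 to 3.35 for Angptl4, with both calls lost without either BFC012 array. Over those settings Tek lay between -0.31 and 0.22 and Tie1 between -0.30 and 0.0070, and both changed sign without being called, Tek without BFC012 replicate 1 and Tie1 without BFC012 replicate 2. The dimmer Angpt2 probe set changed sign with quantile normalization (-0.0035), without OP9M2 replicate 2 (-0.047) and without BFC012 replicate 2 (-0.26), each not called, with a range of -0.26 to 0.35 over the arrays left out.

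The replicate numbers do not pair the samples by any label, and the deviations of like-numbered arrays correlated at -0.10 across probe sets. With the replicate number as a block, 2 member probe sets were called, the dimmer one of Angpt1 being lost (3.44, adjusted p = 0.0552), and of the genes in the lists 7 were higher and 2 lower, against 11 and 4 without it. Over all probe sets the block gave 245 higher and 462 lower, against 810 and 1198. With the numbers crossed, an alternative chosen after seeing the data, 2 member probe sets were called, 585 probe sets were higher and 792 lower, and the brighter Angpt1 probe set was not called (7.15, adjusted p = 0.0577, between 0.00155 and 0.295 over all alternatives).

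Leaving out 1 array gave 0 to 4 member probe sets called higher, and in the lists 0 to 16 genes higher and 0 to 7 lower. The dimmer Angptl4 probe set was called with an intensity trend (adjusted p = 0.0362) and without either OP9M2 array. The filter on dim probe sets left out Tek and Tie1, which have no value under it. Without OP9M2 replicate 1, 1451 probe sets were higher and 1759 lower, and without OP9M2 replicate 2, 2181 and 2256.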
